A study of Homo sapiens with 24 samples.

Results

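Baseline translation efficiency was described in the 2 unperturbed groups of a study of MDA-MB-231 cells, an established human breast cancer line. Efficiency was taken as the footprint value of a transcript over its RNA value. Parental cells carried the label poorly metastatic and no genotype label. Control guide cells (sgCTRL) were of the same line with the same metastatic label and the genotype label control. Each group had 3 footprint libraries and 3 RNA libraries, so that 12 of the 24 libraries of the series were used. The other 12 libraries, of a highly metastatic derivative and of HNRNPC knockdown cells, were not used here. Lysates of both groups held cycloheximide, which holds ribosomes in place on mRNA. The sources used here do not give how the guide was delivered, what guide system the cells held, or whether they were a clone or a pool. No label tells separate cultures from repeat libraries, so p-values reflect variation among these libraries alone, part or all of which may be technical.

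Transcripts were kept in a group where the mean over its 3 footprint libraries and the mean over its 3 RNA libraries were both at least 10. In parental cells 9271 of 11252 listed transcripts (82.4%) were kept, and in control guide cells 8143 of 10767 (75.6%), with 8020 kept in both. The footprint minimum removed 1976 and 2620 transcripts, and 5 and 4 had an RNA mean under 10. The lowest footprint mean kept was 10.01 in parental and 10.00 in control guide cells, and the highest left out was 9.99 in both. Just inside it, between 10 and 11, lay 180 and 176 transcripts with a median efficiency of -0.34 and -0.50 on the log2 scale explained below, and just outside it, between 9 and 10, lay 160 and 187 with -0.41 and -0.42. The tables list transcripts by Ensembl transcript ID without gene names, and 0 of 11396 IDs matched the name tables used here. Transcripts are therefore described by their RNA, footprints and efficiency, and markers of the cell line, gene groups and sequences were not analysed here.

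Ribosome profiling digests RNA that is not covered by ribosomes and sequences the fragments that remain, each marking the place of 1 ribosome. Most ribosomes on an mRNA are elongating, and how many are loaded depends chiefly on how often translation starts. Structure and short upstream reading frames in the 5' leader are known to affect the start rate of single mRNAs. So are tracts of pyrimidines at the very 5' end and binding of proteins and microRNAs. A ratio of footprints to RNA does not tell ribosomes that elongate from ribosomes that are stalled, and it averages over all cells and all copies of the mRNA, including copies in the nucleus. In such bulk samples fewer cells with a transcript and less of it per cell cannot be told apart.

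RNA libraries held 26810212 to 35312583 reads over the listed transcripts in parental cells and 23344230 to 28334050 in control guide cells, recovered from the values, which were whole multiples of 1 step per library. Footprint values summed to 1105987 to 1134509 and to 720575 to 753066, and their depth in reads is unknown. The median SD between replicates, in log2 units, was 0.07 for RNA in both groups and 0.16 and 0.17 for footprints. The Spearman correlation between replicates, over the transcripts kept, was 0.996 for RNA in parental cells and 0.995 to 0.996 in control guide cells. For footprints it was 0.974 to 0.978 and 0.962 to 0.970. The number of identical columns was 0, and recovered RNA reads of replicates varied beyond sampling noise (chi-square per degree of freedom 5.67 to 7.46).

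Translation efficiency spread over about the same range in both groups, with most transcripts close to the middle and a few very far from it. The median kept transcript had 42.7 footprint units per 1000 RNA units in parental cells and 36.1 in control guide cells. These ratios depend on how each assay was scaled, so every efficiency below is given relative to the median transcript of its group, on the scale of log2(value + 1). The SD of efficiency over transcripts was 1.05 in parental and 1.03 in control guide cells. Taken from single same-numbered pairs of libraries it was 1.08 ± 0.01 and 1.05 ± 0.03 (SD, n = 3). The middle 50% of transcripts lay within 1.36 log2 units in parental cells and 1.33 in control guide cells, a 2.56-fold and a 2.52-fold range. The 5th and 95th percentiles were -1.86 and 1.498 in parental cells, 10.2-fold apart, and -1.85 and 1.43 in control guide cells, 9.73-fold apart. Within 2-fold of the median lay 6358 of 9271 transcripts (68.6%) and 5635 of 8143 (69.2%).

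Counted from the median, the lower tail was fuller than the upper one, a balance that depends on this reference. The skew was -0.03 in parental and -0.20 in control guide cells, and the most extreme values lay above the median. More than 4-fold below the median were 356 transcripts in parental and 317 in control guide cells, against 147 and 89 more than 4-fold above it. The error of the replicates made up 2.47% of the variance of efficiency between transcripts in parental cells and 2.66% in control guide cells. This share covers only error that differs between libraries. A transcript's length, its coding share and any bias of a library preparation act alike in every replicate and are not part of it.

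**Figure D1:**
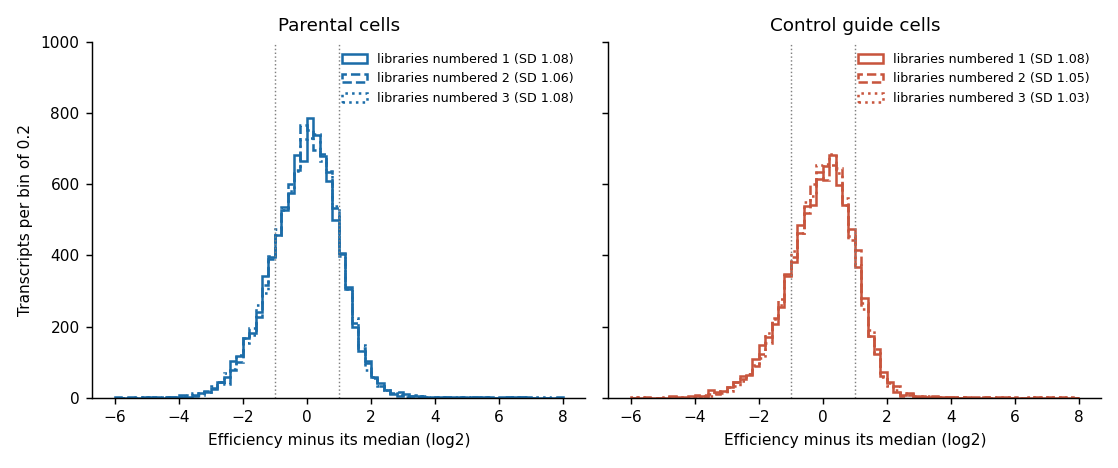
Distribution of translation efficiency over the kept transcripts (x axis, log2 of footprints over RNA minus the median of that pair of libraries; y axis, transcripts per bin of 0.2) in parental cells (left) and control guide cells (right). Each line is 1 pair of same-numbered libraries and the dotted lines mark 2-fold; the 3 lines of a group nearly coincide, and the SD is 1.06 to 1.08 in parental and 1.03 to 1.08 in control guide cells.

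Transcripts of like RNA value differed widely in footprints. Between RNA values of 1000 and 2000, the 2150 transcripts kept in parental cells had a median footprint value of 60.9, with a 5th percentile of 16.9 and a 95th percentile of 150. The highest was 329, and the low end was bounded by the minimum of 10. In control guide cells the 2087 transcripts of that range had a median of 48.9, with 14.02 and 122 at those percentiles. At nearly the same amount of RNA reads, footprints of kept transcripts thus covered an 8.92-fold range in parental and an 8.71-fold range in control guide cells, from the 5th to the 95th percentile, against the 2-fold range of RNA. The minimum had removed 72 of 2222 and 150 of 2237 listed transcripts of that RNA range. Over all listed ones the 5th percentiles were 12.9 and 8.09 and the ranges 11.6-fold and 14.9-fold. Neither value is per length, since transcript lengths were not analysed here, so these RNA values order transcripts by reads and not by copies.

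Footprints rose with RNA across transcripts, but less than in proportion. Pearson's r between mean log2 footprints and mean log2 RNA was 0.80 over 9271 transcripts in parental cells and 0.77 over 8143 in control guide cells, so that RNA accounted for 63.9% and 59.4% of the variance of footprints on that scale. The least-squares slope was 0.689 in parental cells (0.679 to 0.697 over the 3 same-numbered pairs) and 0.671 in control guide cells (0.658 to 0.681). Among kept transcripts, 10-fold more RNA thus went with 4.88-fold more footprints on average in parental and 4.69-fold more in control guide cells. The slope moved with the filter: it was 0.794 and 0.813 without a minimum and 0.560 and 0.528 with a minimum of 50. Both assays of a transcript share its length and annotation, and transcripts are not independent replicates, so no p-value is given. The slope from the ratio of the SDs (reduced major axis) was nearer to 1, at 0.861 and 0.871, and neither form took errors of the assays into account.

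**Figure D2:**
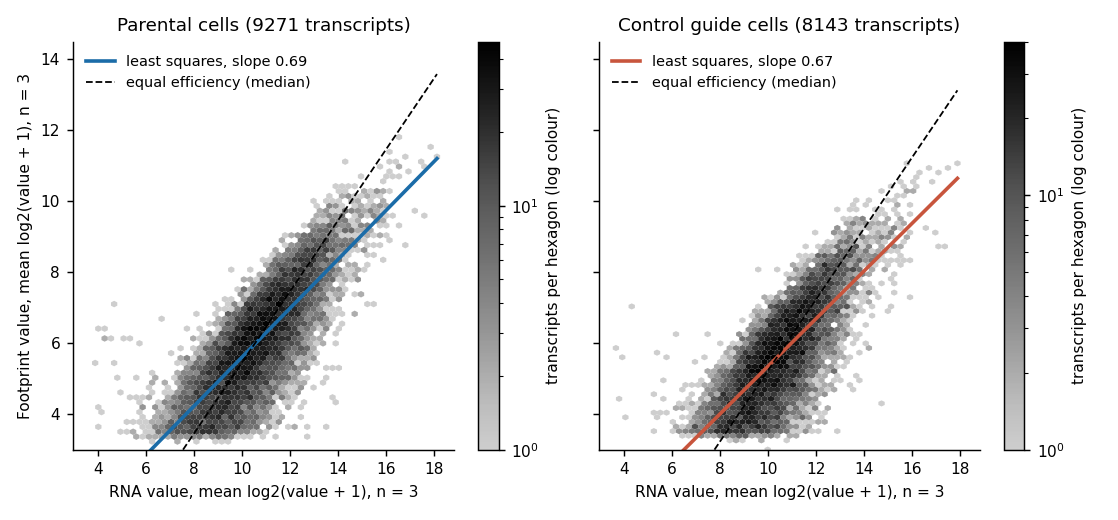
Footprint value (y axis) against RNA value (x axis) of each kept transcript, both as the mean of log2(value + 1) over 3 libraries, in parental cells (left) and control guide cells (right), with darker hexagons for more transcripts on a log scale. The coloured least-squares lines have slopes of 0.69 and 0.67 and are flatter than the dashed line of equal efficiency; the lower edge of the cloud is the footprint minimum of 10.

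Efficiency was lower for transcripts with more RNA in both groups. The Spearman correlation of efficiency with RNA value was -0.468 in parental cells (-0.481 to -0.441 over single pairs) and -0.472 in control guide cells (-0.493 to -0.438). RNA stands in both quantities, and its error alone gives a negative rank correlation. With RNA taken from a replicate that did not enter the efficiency, the rank correlation was -0.463 and -0.467. In the 10 equal groups of listed transcripts ordered by RNA value, the median efficiency of kept transcripts went from 1.73 in the lowest to -0.70 in the highest in parental cells. It went from 1.73 to -0.66 in control guide cells.

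The trend at low RNA was smaller without the footprint minimum. Of the transcripts in the lowest of the 10 groups, with RNA values of 7.52 to 155, 17.3% were kept in parental cells, and in the same group of control guide cells 11.05%. A transcript with so little RNA reached a footprint mean of 10 only where its efficiency was high. When all listed transcripts were counted, the lowest group had a median of 0.72 in parental cells and 0.52 in control guide cells, and the rank correlation was -0.341 and -0.263. A higher minimum of 50, which removes more transcripts of low efficiency at low RNA, gave -0.657 and -0.688. Over all listed transcripts of the lowest group, the median footprint value was 4.52 in parental and 3.61 in control guide cells. At such values the 1 added before the log2 raises footprints more than RNA, and so raises efficiency. Its part in the values without a minimum was not tested. Without the minimum, the medians of groups 3, 4, 5 and 6 were 0.08, 0.07, 0.07 and -0.03 in parental cells and -0.16, -0.03, 0.02 and -0.10 in control guide cells, so that there was little trend through the middle of the RNA range.

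Efficiency also fell along the high RNA groups, where nearly all transcripts were kept. In parental cells at least 95% of the listed transcripts were kept in groups 5 to 10, where the median went from 0.12 to -0.70. In control guide cells this held for groups 7 to 10, with medians of -0.14 to -0.66. Above the median RNA value of the listed transcripts the rank correlation was -0.257 over 5552 transcripts in parental and -0.242 over 5196 in control guide cells, and the slope was 0.768 and 0.765. The SD of efficiency within groups 5 to 10 of parental cells was 0.88 to 0.97. Replicate error fell along the same axis, from a median footprint SD of 0.20 in group 5 to 0.09 in group 10.

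**Figure D3:**
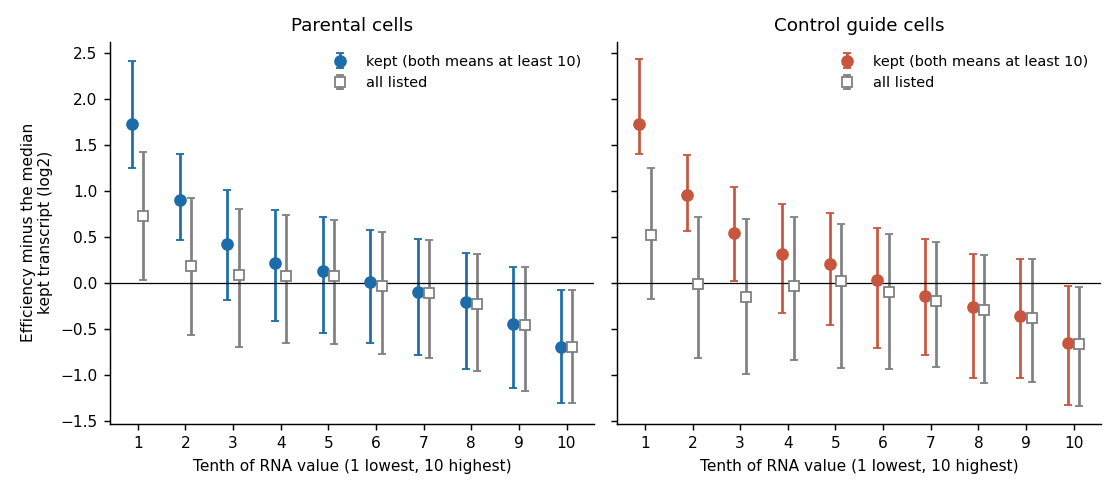
Median translation efficiency relative to the median kept transcript (y axis, log2) in 10 equal groups of transcripts by RNA value (x axis, 1 lowest to 10 highest), with bars from the 25th to the 75th percentile. Filled circles are the kept transcripts and open squares all listed ones; they part at low RNA, where few transcripts reach the footprint minimum (17.3% and 11.05% kept in group 1), and meet at high RNA, where both medians end at -0.70 in parental cells and at -0.66 and -0.67 in control guide cells.

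How reads were shared out is described next. Groups cut by RNA value hold the most or the least RNA by that choice. Their lower or higher shares of footprints follow in part from it. The highest of the 10 RNA groups held 55.0% of summed RNA values and 42.1% of summed footprint values in parental cells, and 53.7% and 41.7% in control guide cells. The 50% of transcripts with the least RNA held 7.96% of RNA and 13.0% of footprints in parental cells, and 9.00% and 13.5% in control guide cells. The 10 transcripts with the most RNA made up 4.95% ± 0.05 of RNA in parental cells (SD, n = 3), whereas the 10 with the most footprints made up 2.26% ± 0.09 of footprints. In control guide cells these shares were 5.33% ± 0.08 and 2.41% ± 0.13. Of the 10 top transcripts of each assay 5 were the same in parental and 6 in control guide cells, and of the top 100 it was 49 and 53. It took 889 transcripts to reach 50% of the RNA sum in parental cells and 1242 to reach 50% of the footprint sum, against 898 and 1182 in control guide cells. Ribosome footprints were in this sense spread more evenly over transcripts than RNA reads were.

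Differences from the median transcript were tested against the spread between replicates with limma's treat, which asks whether a difference is larger than a set fold, here 2-fold. The test was run in either direction within each group, and a transcript was called at a Benjamini-Hochberg adjusted p under 0.05 over all kept transcripts. In parental cells 680 of 9271 transcripts (7.33%) were called above the median and 913 (9.85%) below it. In control guide cells 549 of 8143 (6.74%) were called above and 733 (9.00%) below. The transcript in the middle is not a biological zero, and centring each group on the ratio of its summed footprints to its summed RNA instead gave 1350 above and 563 below in parental cells and 1117 above and 478 below in control guide cells. The balance of high against low calls therefore turned with the reference. With a minimum of 50 in both assays, where fewer transcripts were tested, the counts were 444 and 457 in parental and 273 and 317 in control guide cells.

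Transcripts called high had less RNA, and those called low more RNA, than those not called. RNA is also the denominator, and footprints the numerator, of the efficiency that the calls were made on. The orders and shares in this paragraph therefore follow in part from how the transcripts were called. Those called above had a median RNA value of 619 in parental cells, those called below one of 4345, and those not called one of 1490. In control guide cells the medians were 623, 3726 and 1398. Footprints were ordered the other way, with medians of 82.9 for those above, 64.3 for those not called and 46.7 for those below in parental cells, and 70.9, 49.5 and 32.8 in control guide cells. The transcripts called below held 27.4% of all RNA in parental cells but 9.52% of the footprints, and 24.4% and 7.90% in control guide cells. Those called above held 1.99% of the RNA and 7.38% of the footprints in parental cells, and 1.998% and 7.32% in control guide cells. Low calls were possible only where RNA was high enough for a footprint mean of 10, and in parental cells groups 1 to 4 of RNA held 0 of them. In group 10 of parental cells 305 of 1125 (27.1%) were called below and 5 above, and in group 10 of control guide cells 276 of 1071 (25.8%) and 6.

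Among transcripts called the same way in both groups, ordered by the mean efficiency over the groups, the highest were transcripts with very little RNA and the lowest were abundant RNAs with few footprints. The footprint minimum admitted transcripts of so low an efficiency only where RNA was high. RNA is the denominator of efficiency, so the contrast in RNA follows in part from the order itself. At the RNA values of the highest, a transcript of median efficiency would not have reached the footprint minimum. The adjusted p-values below are thus of transcripts chosen for an extreme efficiency. Single groups held called transcripts further out, at 7.19 above and 5.20 below the median in parental cells and at 5.62 below it in control guide cells. ENST00000620438 was the highest by this order. Its footprint values in parental cells were 141, 126 and 129, at RNA values of 29.3, 25.6 and 18.2, and in control guide cells its footprint values were 128, 134 and 126, at RNA values of 23.5, 21.4 and 15.8. Footprints exceeded RNA in all 6 pairs of libraries, where the median transcript had 42.7 and 36.1 footprint units per 1000 of RNA. Its efficiency was 7.02 ± 0.24 above the median in parental cells (log2 ± SE, limma treat, adjusted p = 8.88e-10) and 7.50 ± 0.22 in control guide cells (adjusted p = 2.85e-09). Its RNA rested on 19 to 24 reads per library in parental and 14 to 25 in control guide cells.

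ENST00000544708 came next by that order. Its footprint values were 69.7, 60.7 and 71.1 in parental and 68.3, 57.4 and 49.7 in control guide cells. Its RNA values were 17.9, 17.0 and 17.3 in parental and 9.39, 16.6 and 10.2 in control guide cells, from 9 to 18 reads per library. Footprints were again above RNA in every pair, and the groups overlapped in footprints. Efficiency was 6.49 ± 0.26 and 7.08 ± 0.28 above the median (limma treat, adjusted p = 3.21e-09 and 3.09e-08). The 8 highest by that order had RNA means of 16.4 to 103 in parental and 12.04 to 67.7 in control guide cells, and none rested on more than 123 RNA reads in a library. Their footprint means were 42.4 to 132 and 21.9 to 130. Footprints exceeded RNA on average in 13 kept transcripts of parental cells and in 6 of control guide cells, 5 of them shared, with RNA values of at most 52.4 and 67.7.

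The lowest by the same order was ENST00000388948, with much RNA and few footprints. It had RNA values of 15243, 15165 and 15109 in parental cells and 7798, 7904 and 7463 in control guide cells. Its footprint values were only 13.3, 28.5 and 18.3 in parental and 12.1, 9.31 and 9.99 in control guide cells. That is 1.32 footprint units per 1000 of RNA in parental and 1.35 in control guide cells. Its efficiency was -4.95 ± 0.19 against the median in parental cells, 30.9-fold lower (limma treat, adjusted p = 3.66e-09), and -4.54 ± 0.11 in control guide cells, 23.3-fold lower (adjusted p = 1.69e-09). Its footprint values varied more than 2-fold between parental replicates, while RNA was steady.

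ENST00000258349, the next lowest, had footprint values of 29.8, 25.7 and 30.7 in parental and 22.9, 31.2 and 34.6 in control guide cells. Its RNA values were 12877, 11305 and 10043 in parental and 15966, 13343 and 11488 in control guide cells, with overlap between the groups in both assays. Efficiency was -3.97 ± 0.10 and -3.94 ± 0.15 against the median (limma treat, adjusted p = 1.71e-10 and 6.37e-08). The 8 lowest by the mean over both groups had 1.32 to 4.02 footprint units per 1000 of RNA in parental and 1.35 to 2.78 in control guide cells. Their RNA means ran from 5670 to 201239 and from 4739 to 158685, all above the median RNA value of kept transcripts, which was 1573 and 1464. The filter fixed this, since at so low an efficiency a footprint mean of 10 is reached only with RNA above those medians. Besides these, 95 transcripts of parental and 197 of control guide cells with an RNA mean of at least 1000 were left out for footprint means under 10 and were not tested.

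**Figure D4:**
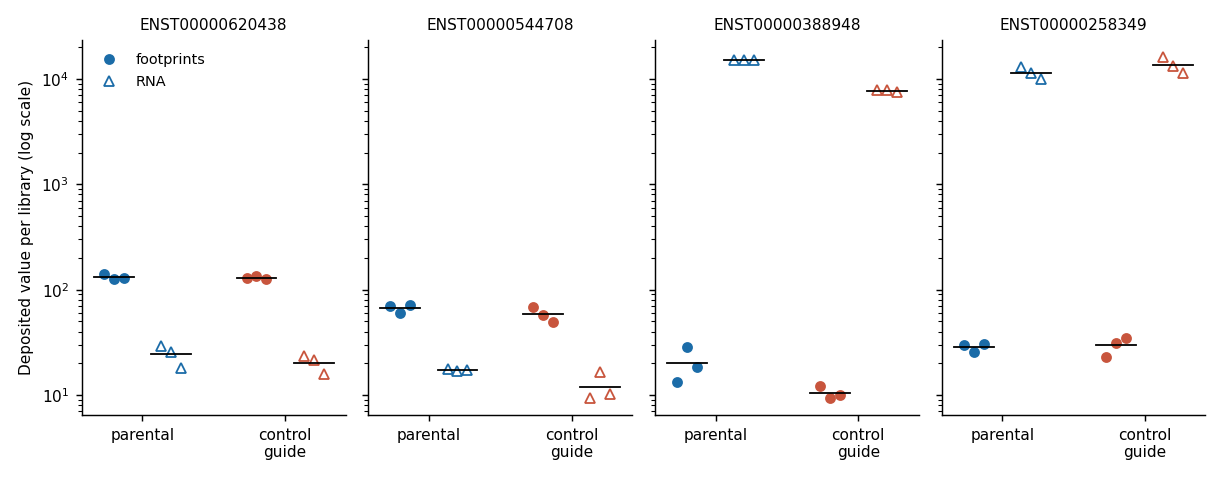
Deposited footprint values (filled circles) and RNA values (open triangles) in each of the 3 libraries per assay (y axis, log scale), in parental (blue) and control guide cells (red), for the 2 highest and the 2 lowest by mean efficiency over both groups among transcripts called the same way in both, with black bars at the means. Footprints lie above RNA for ENST00000620438 and ENST00000544708, and RNA lies more than 100-fold above footprints for ENST00000388948 and ENST00000258349.

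The 8 transcripts with the most RNA all lay below the median efficiency in both groups. Chosen by RNA over both groups, they had means of 113836 to 284897 in parental and 110782 to 244633 in control guide cells. In each group 7 of the 8 were called below the median. Of all kept transcripts 9.85% in parental and 9.00% in control guide cells were called below, and in RNA group 10 it was 27.1% and 25.8%. The RNA by which the 8 were chosen is also the denominator of efficiency. The transcript with the highest RNA mean over both groups had footprint values of 2464, 2530 and 2723 in parental and 2153, 2035 and 1804 in control guide cells. Its efficiency was -2.19 ± 0.04 in parental cells and -1.70 ± 0.07 in control guide cells (limma treat, adjusted p = 1.71e-10 and 1.55e-05). The third by RNA had only 826, 762 and 837 footprint units at RNA values of 202398, 204550 and 196768 in parental cells, and 423, 438 and 409 at 171534, 153175 and 151346 in control guide cells. That gave efficiencies of -3.35 and -3.68, and by their mean it was among the 8 lowest described above. The eighth by RNA had more footprints at less RNA, 2420, 2431 and 2801 in parental cells, at RNA of 121544, 122737 and 119937. Its efficiency of -0.97 and -0.95 was below the median by less than 2-fold, and so did not pass the test for a difference beyond 2-fold (adjusted p = 1 in both groups).

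The order of transcripts by efficiency was close to the same in parental and control guide cells. The tables were normalized separately, so ranks were compared and no test was made between them. Over the 8020 transcripts kept in both, the Spearman correlation was 0.934 for efficiency, 0.957 for RNA and 0.921 for footprints. For single pairs of libraries, the rank correlation of efficiency was 0.871 to 0.913 between the groups, against 0.932 to 0.945 between replicates of parental cells and 0.920 to 0.932 between replicates of control guide cells. Pairs from different groups thus matched less well than replicates of either group in every case. After the groups' medians were set equal, efficiency differed by less than 1.5-fold for 92.1% of transcripts and by less than 2-fold for 98.0%, which left 157 beyond 2-fold.

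Agreement in rank was lowest where footprints were few. For the 1457 transcripts whose lower footprint mean was 10 to 20, the rank correlation of efficiency was 0.895 and the SD of the difference was 0.50 on the log2 scale. For 2616 with 20 to 50 it was 0.937 with an SD of 0.35, for 3149 with 50 to 200 it was 0.960 with 0.24, and for 798 with 200 or more it was 0.956 with 0.24. The rank correlation between replicates of a group was 0.838 to 0.903 in the lowest of these classes and 0.981 to 0.989 in the highest. Single pairs between the groups had 0.938 to 0.957 in the highest class, below every pair of replicates. In the lowest class they had 0.759 to 0.866, which overlapped the range of replicates.

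The agreement was also seen among transcripts of like RNA value. Within each of 10 equal groups of 802 transcripts by mean RNA over both cell groups, the rank correlation of efficiency was 0.851 to 0.964. With the median of each of those groups removed, the rank correlation over all 8020 was 0.919. Footprints tracked RNA between the cell groups too. The difference in footprints from parental to control guide cells had a slope of 0.869 on the difference in RNA (r = 0.741 across transcripts, on the log2 scale). Of 284 transcripts whose RNA differed by more than 2-fold from the median difference, 281 had footprints that differed the same way. The 284 were picked for a large RNA difference, and the same share over all 8020 is not given here. All these differences are between libraries of 2 separately made tables, and cell group and table cannot be told apart.

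**Figure D5:**
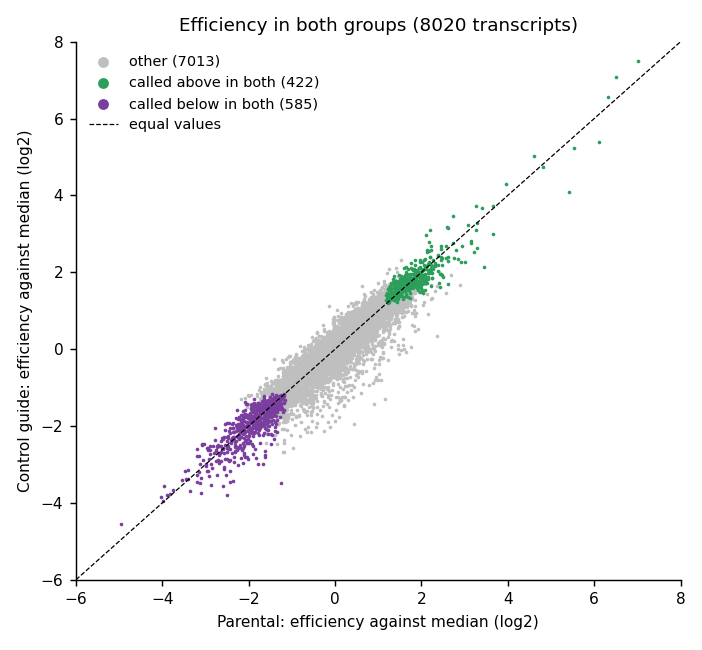
Translation efficiency relative to the median transcript (log2) in parental cells (x axis) and control guide cells (y axis) for the 8020 transcripts kept in both, with the 422 called above in both in green, the 585 called below in both in purple and the rest in grey. Points lie along the dashed line of equal values from about -5 to 7, and no transcript was called above in 1 group and below in the other.

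The extremes were largely shared. Of the 802 transcripts in the top 10% by efficiency in parental cells, 608 (75.8%) were in the top 10% in control guide cells, with a median rank percentile of 94.8 there. Of the bottom 10% 622 (77.6%) were shared, with a median percentile of 5.63. From the top 10% of parental cells 7 lay below the median rank in control guide cells, and from the bottom 10% of control guide cells 10 lay above it in parental cells. Among transcripts tested in both groups, 422 were called above in both, 69.0% of the 612 in parental and 77.7% of the 543 in control guide cells. Called below in both were 585, which is 77.1% of the 759 and 81.0% of the 722. Of the 612 and 759 called in parental cells 609 and 759 lay on the same side of the median in control guide cells, and 0 were called in opposite directions. Calls in parental cells lay at least 1.15 log2 units from the median, while the SD of the difference between the groups was 0.35. A change of side was thus unlikely from the choice of these transcripts alone. The share on the same side over all 8020 is not given here.

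A few well-measured transcripts changed rank by far. Among 3947 with a footprint mean of at least 50 in both groups, the median shift in rank was 4.31 percentile points and 95% shifted by less than 16.9, while 3 shifted by more than 50. Summed over listed transcripts, RNA values were 33854389 to 34184294 in parental and 26071868 to 26617054 in control guide cells. Footprint values summed to 1105987 to 1134509 and to 720575 to 753066. The 3 largest rises from parental to control guide cells were of transcripts with lower RNA values and like footprint values as listed. Against those sums, their share of RNA was lower and their share of footprints higher in control guide cells. The first of them had RNA of 10425, 10453 and 11864 in parental and 4109, 4532 and 5440 in control guide cells, and footprints of 420, 391 and 412 and of 398, 340 and 318. It went from percentile 36.4 to 87.4. The largest fall was of a transcript whose RNA was 2267, 2356 and 2426 in parental and 25396, 24964 and 26558 in control guide cells. Its footprints were 230, 196 and 193 in parental and 920, 816 and 761 in control guide cells, a smaller ratio than that of RNA, and it went from percentile 88.0 to 35.3. The next largest fall joined higher RNA (7147 ± 404 in parental and 9632 ± 440 in control guide cells, SD, n = 3) with lower footprints (363 ± 42.1 and 135 ± 33.1), and it went from percentile 57.0 to 5.32. These levels come from separately normalized tables, and the shifts were not tested.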

How the data were processed

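The authors deposited 1 table per experiment with a normalized read signal per transcript, as the deposited tables' names and values show. The submitters' processing notes name Bowtie2 2.3.5, SAMtools, cutadapt 2.3, UMI-tools and hg38 without roles. The sources used here do not give the annotation, the stretch of a transcript counted in each assay, how reads shared between transcripts were treated, the scaling, or whether footprints were corrected. If footprints were counted over coding sequence and RNA over whole transcripts, efficiency also moves with the coding share, which was not tested. RNA values were whole multiples of 1 step per library (100% within 0.05 of a whole number), with at least 4 reads per listed transcript, whereas footprint values had no common step. No count model was therefore run. Exact footprint values of 0 occurred in 70 to 234 listed transcripts per library and in 0 of the kept ones.

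Of 24 columns of values 12 were used. Parental columns, named for the cell line alone, were matched to parental samples by replicate number. Values were transformed as log2(value + 1), which understates differences of low values. For the tests each library was centred on its median over the kept transcripts, and footprints were compared with RNA over the 6 libraries of a group with limma 3.58.1 (R 4.3.3, treat with a log2 threshold of 1 and a variance trend, adjusted over all kept transcripts). Descriptions used Python 3.11.15. The procedure was tested on simulated data. A transcript not called may still lie more than 2-fold from the median.

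The transcripts named are the 2 highest and the 2 lowest in mean efficiency among those called the same way in both groups, and others are described without an ID: the 8 highest and lowest, the 8 with the most RNA and the 3 largest rises and falls in rank. The rules were chosen with earlier results of these data known. Gene lists, cell markers, transcript features and sequences could not be used without gene names. Alternatives were other pseudocounts, filters, scaling, folds, variance models, the replicate number as a block and leaving out each library.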

Additional observations from a re-analysis of the deposited data

How the results depend on the processing

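The negative sign of the rank correlation between efficiency and RNA, slopes under 1 and a rank correlation above 0.89 between the groups held under every alternative run, but their size followed the filter and the pseudocount. In parental and control guide cells the SD of efficiency was 1.09 and 1.08 with a minimum of 5, 0.92 and 0.89 with 50, and 1.13 and 1.17 with none. The slope was 0.738 and 0.728, 0.560 and 0.528, and 0.794 and 0.813. The rank correlation with RNA was -0.403 and -0.384, -0.657 and -0.688, and -0.341 and -0.263. The rank correlation between the groups was 0.918, 0.959 and 0.892. With a pseudocount of 5 the slope was 0.648 and 0.625, the rank correlation with RNA -0.550 and -0.560, and the SD in parental cells 1.04. Above the median RNA value the slope was 0.768 and 0.765 and the rank correlation -0.257 and -0.242, and the reduced major axis gave slopes of 0.861 and 0.871. Without a fold threshold 3811 transcripts were above and 3329 below in parental and 3377 and 2818 in control guide cells, and beyond 1.5-fold 1737 and 1741, and 1541 and 1450. A minimum of 50 gave 444 and 457, and 273 and 317, and sum scaling 1350 and 563, and 1117 and 478.

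Leaving out each library gave 543 to 679 above and 772 to 983 below in parental cells and 398 to 567 and 596 to 768 in control guide cells. It gave SDs of 1.05 to 1.06 and 1.02 to 1.04, slopes of 0.685 to 0.694 and 0.663 to 0.678, rank correlations with RNA of -0.474 to -0.455 and -0.484 to -0.454, and rank correlations between groups of 0.921 to 0.939. Deviations of same-numbered footprint and RNA libraries had r of -0.00 to 0.13, above 0.1 only in pair 1 of control guide cells. Of 6 footprint libraries 4 correlated best with the RNA of their own number. With the number as a replicate block, 703 were above and 976 below in parental and 545 and 789 in control guide cells. Single pairs, averaged, gave an SD of 1.08 in parental cells and a rank correlation between groups of 0.892. The 4 named transcripts passed in both groups under every alternative run on them, some of which (left-out libraries, the block, other variance models) were added after seeing the data. The minimum of 50 removed all 4 in both groups, so it gave no test of them. Unknown footprint depth limits the low end, where the median footprint SD was 0.31 in the lowest RNA group of parental cells.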

Other observations

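Transcripts listed in 1 table only were mostly low. The parental table held 629 that the control guide table lacked, with a median RNA value of 123.3 and a median footprint value of 3.55, and 44 of them were kept. The control guide table held 144 of its own, with medians of 71.6 and 2.48, and 1 was kept. The highest RNA mean among the 629 was 4678 and the highest footprint mean was 159, so that a few well-expressed transcripts were listed for 1 experiment alone. Of the 9271 transcripts kept in parental cells 1251 passed there only, and of the 8143 kept in control guide cells 123 did. Their median footprint values of 16.6 and 13.0 were close to the minimum of 10, at median RNA values of 505 and 427. The same minimum was set on separately normalized tables. Footprint values summed to 1105987 to 1134509 in parental and to 720575 to 753066 in control guide cells. What part scale or depth had in these counts was not tested.

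Footprints were listed at 0 in all 3 libraries for 9 transcripts in parental cells and for 3 in control guide cells. At least 1 library was at 0 for 259 and 385 transcripts, whose median RNA values were 87.6 and 143.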
